A study of Rattus norvegicus with 15 samples.

Results

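The comparison described here set 4 rats against 4 others in a single tissue, the olfactory epithelium, which is the sheet of sensory neurons, supporting cells, basal cells and glands at the back of the nose. The animals were Brown Norway rats aged 6 weeks, and their labels carry a rat number and a nostril letter, A or B. Rats 1 to 4 gave 7 arrays and rats 5 to 8 gave 8 arrays, which together are all 15 arrays of the series. Each set held 2 males (rats 1 and 2, rats 5 and 6) and 2 females (rats 3 and 4, rats 7 and 8), and male 1 was measured in nostril A only. The labels name no treatment, allele or agent for any animal. The methods of the study state that the rats came from 2 suppliers, but the labels do not give the supplier of any rat, so no supplier was assigned to either set. The 4 glass slides lay inside the sets: slides 1 and 2 carried rats 1 to 4 and slides 3 and 4 carried rats 5 to 8. A difference between the sets and a difference between the slides cannot be told apart.

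The arrays were 1-colour Agilent whole rat genome arrays, read as a brightness per probe of 60 bases. A level is given here as log2 of the signal over the median of its array, a rat's value is the mean of its nostrils, and a difference is the mean of rats 5 to 8 minus the mean of rats 1 to 4 on that scale. Of 41012 probes, 27625 were well above background on at least 7 of the 15 arrays and were tested. Median signals ran from 68.1 to 83.4 on the arrays of rats 1 to 4 and from 57.4 to 74.2 on those of rats 5 to 8. Negative control probes read 7.61 to 10.3 on slide 2, which carried rat 4 and nostril B of rat 3, and 23.3 to 29.5 on slides 1, 3 and 4. Without the arrays of slide 2, 3 probes passed 1% and 7 passed 5% of the false discovery rate used below. These counts were 63 and 2753 without slide 1, 0 and 6 without slide 3, and 0 and 3 without slide 4. The genes that define the tissue were bright in all 8 rats and none of them passed the test, with Omp, the marker of mature olfactory neurons, at 7.50 ± 0.10 and 7.55 ± 0.10 (SD, n = 4 rats) and Cyp2g1, an odorant-metabolising enzyme of supporting cells, at 9.09 ± 0.23 and 9.02 ± 0.15.

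Animals of an inbred strain carry nearly the same genome, so they are often treated as interchangeable. Transcript levels in such animals still vary with the hour of the day, feeding, infection and handling, and, where a colony has been bred apart, with mutations fixed in it. The differences were described by chromosome position and by the function of the genes.

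At a false discovery rate (FDR) of 1%, the threshold of the study, 5 probes differed between the sets (limma with Benjamini-Hochberg adjustment), which was 0.0181% of those tested. They comprised 4 that were higher in rats 5 to 8 (0.0145%) and 1 that was lower (0.00362%). At 5% FDR the number was 217 probes (0.786%), of which 102 were higher (0.369%) and 115 were lower (0.416%), for 206 gene or transcript names. The number depended on which rats were included, and a fit without 1 rat also has fewer animals. Leaving out 1 rat gave 19, 899, 8 and 9 probes past 5% without rats 1, 2, 3 and 4. It gave 56, 14, 6 and 5 probes without rats 5, 6, 7 and 8. In these fits 4 to 5 probes passed 1%. The number past 5% was 24 (15 higher and 9 lower) when the background was corrected by normexp, which also added an offset of 50 to every signal. From the authors' ratio table it was 117 (34.2% higher, beside 47% of the 217). It was 0 when the 4 slide means were compared and 413 when slide was a random block over the 15 arrays, 169 of the 217 among them. With sex as a covariate it was 1359, with rat as a random block 1145, and by the methods' t-test on 8 rats 0. All 217 kept their direction under every alternative in which they were tested. Since the rats of the sets did not overlap in any of the 217, leaving out 1 rat could not reverse a direction. The other alternatives reused the same arrays.

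The differences were small. The median size over the 217 probes was 0.56, the range ran from 0.30 to 2.75, 15 probes differed by more than 1 and 88 by less than 0.5. In all 217 the 4 rats of each set lay apart from the other 4, which held for 3135 probes or 11.3% of all tested. Over the single arrays, the 7 arrays of rats 1 to 4 lay apart from the 8 of rats 5 to 8 in 169 of the 217, which were themselves chosen for a difference between the sets, and in 768 (2.78%) of all tested. Among those of the 217 that are named in the text, the single arrays overlapped for Cxcl2, TC566878, XM_225097, XM_233165, XM_344204, TC530154, TC539720, A_44_P744488, Padi3, Dnah2, Dnaaf1, Cfap144, Tp63, Ak7 and 2 of the 4 Cyp2b2 probes. The median SD between the nostrils of a rat was 0.12 over all tested probes. The median difference over all tested probes was 0.02 and 14832 of them (53.7%) were above 0.

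**Figure D1:**
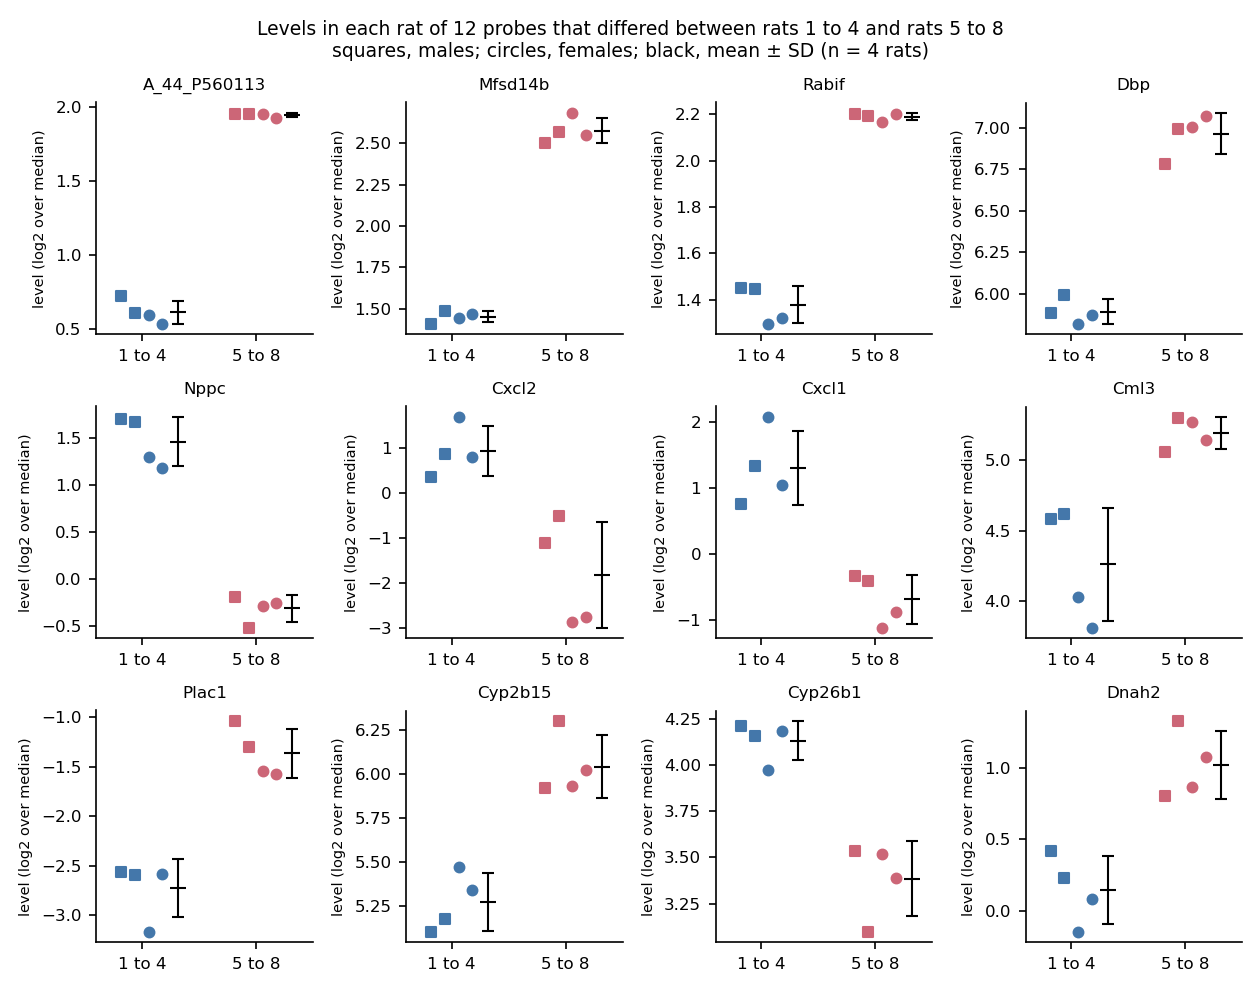
Level in each rat of 12 probes past 5% FDR, as log2 of the signal over the array median, for rats 1 to 4 (blue) and rats 5 to 8 (red); squares are males, circles are females and black bars are the mean ± SD of 4 rats. No panel shows overlap between the sets, and in rats 5 to 8 the 4 points of A_44_P560113 span 0.03.

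The probe with the smallest p-value had no gene name in the array annotation. A_44_P560113 lies on the minus strand of chromosome 17 (chr17:5536171-5536230, build rn3), where the annotation gives no exon, intron or untranslated region. Its level was 0.72, 0.60, 0.59 and 0.53 in rats 1 to 4 and 1.95, 1.95, 1.95 and 1.93 in rats 5 to 8. The sets did not overlap, and the 4 rats of the second set were almost equal. The difference was 1.33 ± 0.07 (SE), a 2.52-fold higher signal in rats 5 to 8, with an adjusted p of 0.000158, and it passed 5% in 27 of 29 alternatives.

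Several of the transcripts that differed most have no gene name here, and for 5 of them, all with a probe of known position, the identity rests on the probe itself. The sequences below are those of the array design, and they are shown so that each can be placed on a later assembly.
A_44_P560113: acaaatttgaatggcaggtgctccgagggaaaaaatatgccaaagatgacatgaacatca
TC547717: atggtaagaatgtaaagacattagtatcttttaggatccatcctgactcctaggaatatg
TC566878: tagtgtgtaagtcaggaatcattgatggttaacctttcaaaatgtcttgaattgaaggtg
TC539720: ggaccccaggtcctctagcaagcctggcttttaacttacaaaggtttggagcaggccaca
A_44_P744488: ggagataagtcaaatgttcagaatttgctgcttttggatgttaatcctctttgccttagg
All 5 are on the minus strand in the annotation (rn3), at chr17:5536171-5536230, chr4:120207662-120207721, chr14:18825091-18825150, chr17:14078365-14078424 and chr16:16513000-16513063.

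The neighbours of A_44_P560113 on chromosome 17 differed in the same direction. Mfsd14b, which encodes a membrane protein of the major facilitator family of transporters and is named RGD1308377 on the array, lies 63.3 kb away on the plus strand (chr17:5599469-5599528). Its level was 1.41, 1.49, 1.44 and 1.47 in rats 1 to 4 and 2.50, 2.57, 2.68 and 2.55 in rats 5 to 8. Again no rat of the first set came near the second, and the difference was 1.13 ± 0.07 (SE), or 2.18-fold (adjusted p = 0.00026). A second Mfsd14b probe was at 1.47, 1.54, 1.82 and 1.87 against 2.32, 2.40, 2.81 and 2.71, a difference of 0.89 (adjusted p = 0.0284). The fourth probe, for the predicted transcript XM_225097, lies 5.38 kb from A_44_P560113 and differed by 0.46 (adjusted p = 0.0455), or by 0.26 without the arrays of slide 1 and 0.29 in nostril B alone, where it did not pass. These were all 4 probes tested in a span of 0.070 Mb, and all 4 rose. The nearest tested probes before the span, for the odorant receptors Or14p1 and Or9s18, had differences of -0.29 and -0.12 and did not pass.

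**Figure D2:**
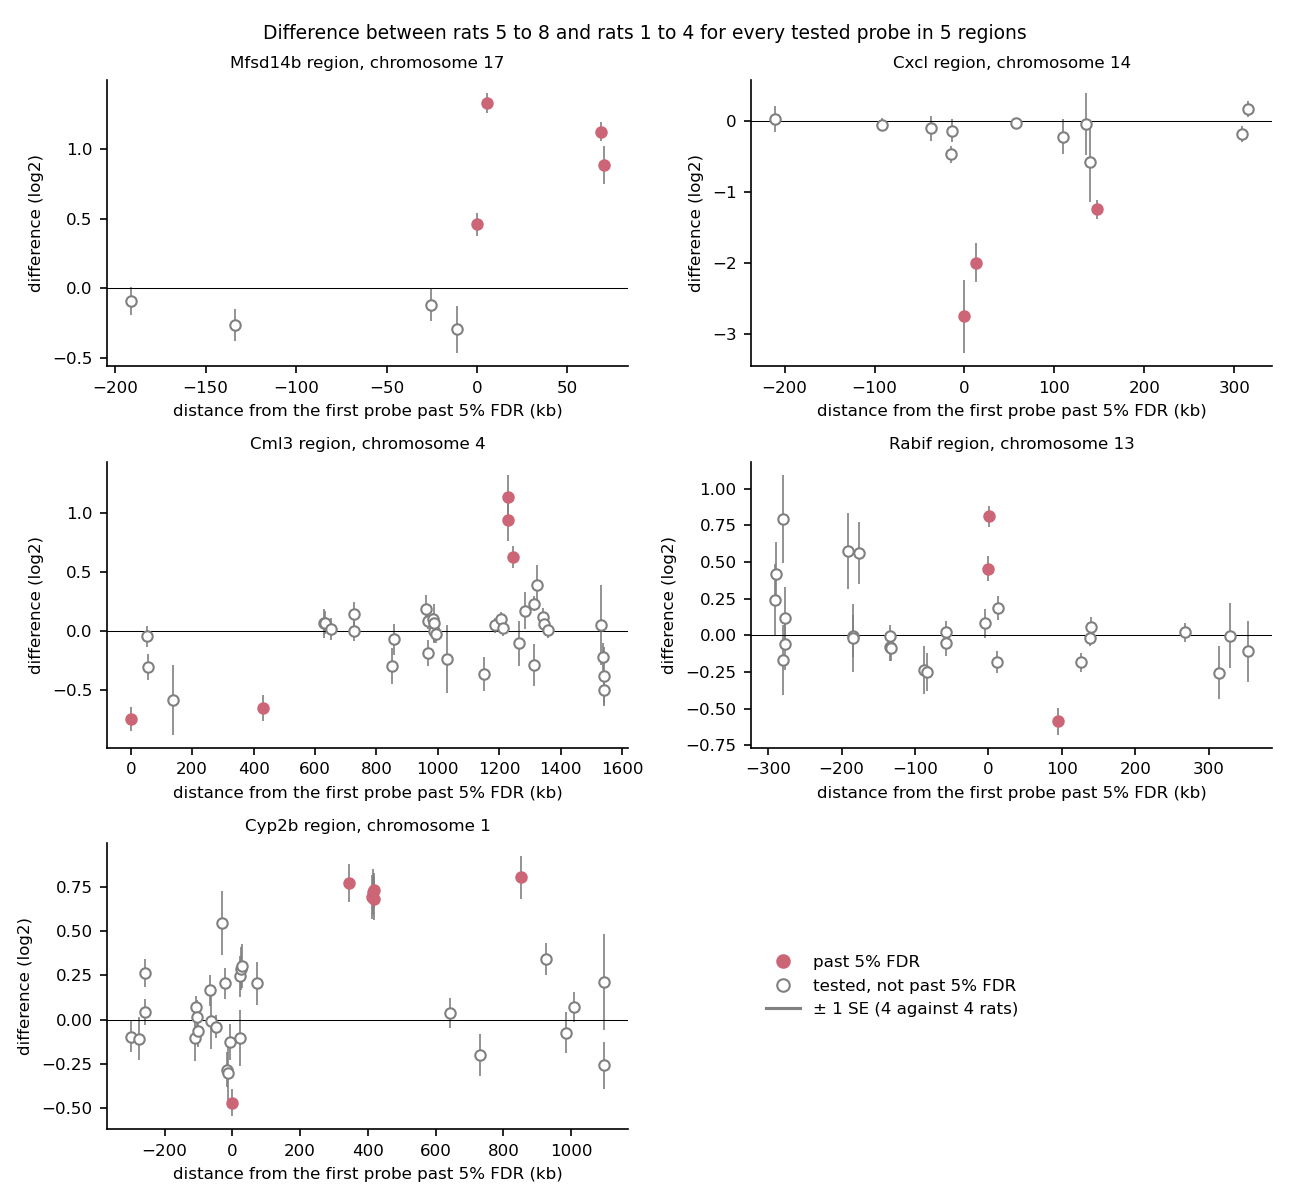
Difference between rats 5 to 8 and rats 1 to 4 (log2, ± 1 SE) for each tested probe in and around 5 regions, against its distance in kb from the first probe past 5% FDR; filled points passed 5% FDR. On chromosome 17 all 4 probes of the span lie above 0, and on chromosome 4 the 3 filled points of the Cml3 group lie above 0 with no open point between them.

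The regions with several differing probes were counted by a fixed rule, as runs of 3 or more probes past 5% FDR, of at least 2 transcripts, with neighbours no more than 1 Mb apart. There were 7 such runs, holding 28 of the 211 differing probes that have a position, and 2 of the 7 ran in a single direction, those on chromosomes 17 and 14. With neighbours at most 0.5 Mb apart there were 5 runs, and at 1% FDR there were 0. A further 16 pairs of differing transcripts lay within 1 Mb, 9 of them in 1 direction, among them M55017 with Nppc on chromosome 9, which were lower in rats 5 to 8. Among the assembled chromosomes, the share of tested probes past 5% was highest on chromosome 19 (1.32%) and chromosome 14 (1.28%, 2 higher and 9 lower) and lowest on chromosome 12 (0.139%).

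On chromosome 14 the run held 2 chemokine genes and an unnamed transcript. Cxcl1 and Cxcl2 encode small secreted proteins that attract neutrophils and are induced at sites of infection or injury. Cxcl2 was at 0.36, 0.87, 1.69 and 0.80 in rats 1 to 4 and at -1.11, -0.52, -2.88 and -2.77 in rats 5 to 8. Females 7 and 8 were lowest, and the probe was well above background on 7 of 7 and on 3 of 8 arrays, so the size of the difference is uncertain. It was -2.75 ± 0.52 (SE) with an adjusted p of 0.049, passed 5% in 13 of 28 alternatives and ran from -3.93 to -1.03 over them. Without the arrays of slide 4 it was -1.75 and did not pass. Over the single arrays the sets overlapped.

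Cxcl1, whose probe lies 13.2 kb from that of Cxcl2, was at 0.75, 1.34, 2.08 and 1.05 in rats 1 to 4 and at -0.34, -0.41, -1.12 and -0.88 in rats 5 to 8. The order of the rats was much as for Cxcl2, with rat 3 highest and rat 7 lowest. Nostrils A and B of rat 4 lay far apart, at 0.13 and 1.97 for Cxcl1 and at 0.001 and 1.60 for Cxcl2. The difference of Cxcl1 was -1.99 ± 0.28 (SE), 3.98-fold, with an adjusted p of 0.0277. The third probe of the run, TC566878, lies 134.6 kb further on and was at -1.02, -0.50, -0.85 and -0.84 against -2.20, -1.97, -2.02 and -2.01 (difference -1.25, adjusted p = 0.014). Its nostrils were less uniform than these means, with rat 4 at -1.41 and -0.27 and rat 6 at -1.38 and -2.55, so that the single arrays overlapped. The difference was -0.81 in nostril A alone and -0.30 after normexp background correction, and it did not pass in either. Probes of 3 chemokine genes in the same span did not pass, with differences of -0.22 for Cxcl3, -0.04 for Pf4 and -0.57 for Ppbp. Among all 29 tested probes of the chemokine and inflammation list, 0 were higher and 2 were lower at 5%, beside 0.369% and 0.416% of all tested probes, and the median difference was -0.04 (0.02 after normexp) beside 0.02 for all probes.

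The myeloid and mast cell list, which holds genes of neutrophils and macrophages, had 0 of 28 tested probes past 5%, beside 0.786% of all tested. It had 5 probes with an unadjusted p under 0.05 (limma), beside 19.1% of all tested, and its differences ran from -0.90 to 0.85. Its mean level ran from 2.67 to 3.24 in rats 1 to 4 and from 2.86 to 3.10 in rats 5 to 8, so the sets overlapped. In bulk tissue, fewer cells of a type and less RNA per cell cannot be told apart. Which cells carried the chemokine transcripts was not tested.

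The promoters of the 2 chemokine genes are shown because the genes lie side by side and differed together. They are taken from RefSeq (assembly GRCr8, minus strand, 250 bases before to 50 bases after the start of the gene), and capitals mark the match to the binding motif of NF-kappaB, searched on both strands.
Cxcl1: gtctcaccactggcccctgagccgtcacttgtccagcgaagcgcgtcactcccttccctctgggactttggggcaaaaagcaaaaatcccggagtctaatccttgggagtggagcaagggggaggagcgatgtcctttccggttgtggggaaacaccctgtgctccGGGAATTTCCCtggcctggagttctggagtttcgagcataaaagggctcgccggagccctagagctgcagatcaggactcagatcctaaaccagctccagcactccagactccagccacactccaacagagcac
Cxcl2: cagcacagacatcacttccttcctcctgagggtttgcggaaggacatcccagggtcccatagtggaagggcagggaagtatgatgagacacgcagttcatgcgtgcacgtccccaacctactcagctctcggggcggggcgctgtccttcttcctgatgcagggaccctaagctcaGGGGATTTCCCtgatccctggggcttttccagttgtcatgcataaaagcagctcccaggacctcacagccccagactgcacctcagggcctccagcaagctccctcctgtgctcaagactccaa
Their positions are chr14:17479272-17479571 for Cxcl1 and chr14:17467206-17467505 for Cxcl2, and the matches, which overlap on the 2 strands, begin 84 and 74 bases before the start. Such a match stood in 4.18% of 33469 RefSeq promoters of the same length. It was present for 4 of 61 genes that were higher in rats 5 to 8 (6.56%) and 5 of 66 that were lower (7.58%), beside 4.51% of all 27457 RefSeq genes with a promoter. A match describes the letters and not a bound factor.

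Nppc, which encodes C-type natriuretic peptide, a hormone that acts locally through a guanylyl cyclase receptor, was the only probe lower in rats 5 to 8 at 1% FDR. It was at 1.70, 1.67, 1.30 and 1.19 in rats 1 to 4 and at -0.19, -0.52, -0.29 and -0.26 in rats 5 to 8 (chr9:85617841-85617900, minus strand, rn3). The gap between the sets was wider than the range within either, and each of the 15 arrays lay on its own side. The difference was -1.78 ± 0.14 (SE), 3.43-fold, with an adjusted p of 0.00114, and it passed 5% in 24 of 29 alternatives. No other probe of the natriuretic peptide list passed, of 13 tested, and the median difference of the list was 0.05 (0.03 after normexp), while its mean level was lower in rats 5 to 8 (1.23 against 1.33).

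Rabif encodes a chaperone of Rab GTPases and is named Mss4 on the array. The probe that passed 1% (chr13:47451276-47451335) was at 1.45, 1.45, 1.30 and 1.32 in rats 1 to 4 and at 2.20, 2.19, 2.17 and 2.20 in rats 5 to 8. The second set was almost uniform, as for A_44_P560113, and the difference was 0.81 ± 0.07 (SE), 1.75-fold, with an adjusted p of 0.00251. A probe 0.206 kb away differed by 0.45 (adjusted p = 0.049), and a Rabif probe 11.01 kb away had a difference of -0.18 and did not pass. The probes of this gene therefore disagreed in size and sign. Kdm5b, an eraser of histone H3 lysine methylation, lies 94.99 kb away and gave 1 lower probe, at 2.39, 2.37, 2.18 and 2.17 against 1.85, 1.64, 1.68 and 1.58, while its other 2 probes had differences of -0.18 and -0.02 and did not pass.

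On chromosome 4, TC547717, Cml3 and Cml5 were higher in rats 5 to 8 and were all 3 probes tested within 0.018 Mb. Cml3 and Cml5 belong to the camello group of N-acetyltransferase genes. Cml3 was at 4.58, 4.62, 4.03 and 3.81 in rats 1 to 4 and at 5.06, 5.30, 5.27 and 5.14 in rats 5 to 8, a difference of 0.93 (adjusted p = 0.0458) with the females of the first set lowest. Cml5 was at 3.10, 3.01, 2.84 and 2.86 against 3.43, 3.67, 3.73 and 3.48 (difference 0.63, adjusted p = 0.0284). TC547717, whose probe lies 1.53 kb from that of Cml3, was at -0.01, -0.09, -0.54 and -0.92 against 0.59, 0.90, 0.83 and 0.65 (difference 1.13, adjusted p = 0.0366). The same run held Cyp26b1, an enzyme that breaks down retinoic acid, which was lower at 4.21, 4.15, 3.97 and 4.19 against 3.53, 3.10, 3.52 and 3.39 (difference -0.75), and Exoc6b, a subunit of the exocyst, at -0.65. Of the 27 probes tested along this run, 5 passed.

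On chromosome 1, 6 probes for the Cyp2b genes were higher. These genes encode cytochrome P450 enzymes that oxidise odorants and drugs. Cyp2b15 was at 5.10, 5.17, 5.47 and 5.34 in rats 1 to 4 and at 5.92, 6.30, 5.93 and 6.02 in rats 5 to 8, a difference of 0.77 (adjusted p = 0.0277). The 4 Cyp2b2 probes differed by 0.68 to 0.73 and a Cyp2b12 probe by 0.80. The genes are paralogs whose transcripts may share a probe, so the 6 values may not be independent. This was not checked against transcript sequences. The 2 probes of Cyp2b21 were at 0.04 and -0.20 and did not pass. All 6 probes past 5% of the xenobiotic enzyme list, of 108 tested (0.786% of all tested probes passed), were Cyp2b probes, and the median of the list was 0.08. In the same run Hnrnpul1, an RNA-binding protein, was lower by 0.47.

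**Figure D3:**
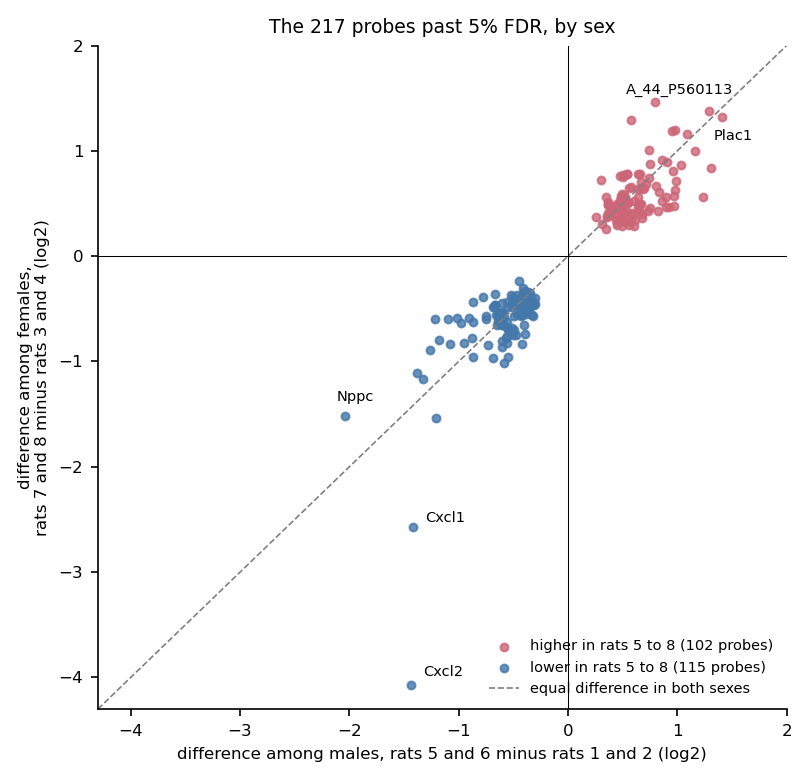
Difference among females against difference among males (log2) for the 217 probes past 5% FDR in the comparison of all 8 rats; each point is a probe, red when higher in rats 5 to 8 and blue when lower, and the dashed line marks equality. All points lie in the quadrants of equal sign, and Cxcl2 and Cxcl1 lie far below the line, with a larger fall among females.

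The comparison was repeated within each sex, where 2 rats stood against 2. Sex followed the slides here: males 1 and 2 were on slide 1 and males 5 and 6 on slide 3, while females 7 and 8 were on slide 4 and the arrays of females 3 and 4 on slide 2, except nostril A of rat 3 on slide 1. A difference between the sexes and one between these pairs of slides cannot be told apart. Among males 25 probes passed 5% (0.0905%) and 3 passed 1% (0.0109%), and 21.5% of all tested had an unadjusted p under 0.05. Among females 426 passed 5% (1.54%) and 6 passed 1% (0.0217%), and 19.6% had an unadjusted p under 0.05. The difference between the female and the male contrast passed 5% for 0 of the 27625 probes (limma; smallest adjusted p = 0.0681), with 2941 probes (10.6%) under an unadjusted p of 0.05. All 217 probes had the same sign in both sexes, which the choice of the probes on the pooled rats favoured. Cxcl2 had a difference of -1.44 in males and -4.07 in females (adjusted p of the interaction 0.273), and Nppc had -2.04 in males and -1.51 in females.

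Genes of the circadian clock, the transcription loop that times daily rhythms, and of its outputs differed in both directions. Dbp, a transcription factor whose transcript follows the clock in many organs, was at 5.89, 6.00, 5.82 and 5.87 in rats 1 to 4 and at 6.78, 6.99, 7.01 and 7.07 in rats 5 to 8, a difference of 1.07 (adjusted p = 0.000492). Tef, its relative, was higher by 0.45, and Klf10, a zinc finger repressor, was lower by 0.39. These were the 2 higher and 1 lower probes past 5% of the 41 tested in the clock output list, whose median difference was 0.06. Of the 11 probes of the core loop, 3 were higher and 1 was lower, beside 0.369% higher and 0.416% lower among all tested probes. They were Per3, a repressor of the loop, at 1.08 and 1.09, Nr1d1, a nuclear receptor that represses Bmal1, at 0.89, and Bmal1, the activator of the loop, at -0.91. After normexp the brighter Per3 probe differed by 0.67 and passed, and the dimmer by 0.26 and did not. The hour at which each rat was killed is not given in the sources used here.

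Of the remaining probes with the largest rise, Dnah2 is described with the cilia genes below, and the others were scattered in role. Plac1, known from the placenta, was at -2.56, -2.59, -3.17 and -2.58 in rats 1 to 4 and at -1.04, -1.30, -1.54 and -1.57 in rats 5 to 8 (difference 1.36, adjusted p = 0.0277). It was well above background on 2 of 7 and on 8 of 8 arrays, so the first set lay close to background. Padi3, an enzyme that converts arginine to citrulline in proteins, was at 0.48, 0.87, 0.40 and 0.36 against 1.88, 1.53, 1.32 and 1.18 (difference 0.95). Enpp3, an ectoenzyme that splits extracellular nucleotides, was at 4.49, 4.31, 4.36 and 4.63 against 5.04, 5.72, 5.196 and 5.23 (difference 0.85). Male 6 stood above the other rats of its set for Enpp3. Tcea3, a transcription elongation factor, rose by 0.90, and the unnamed TC539720 and A_44_P744488 by 1.07 and 0.88. The difference of TC539720 was 0.57 in nostril B alone.

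The largest falls beside the chemokines and Nppc included AI072072, an expressed sequence tag whose probe the paper lists as Rab3gap2. It was at 3.15, 2.50, 2.72 and 2.77 against 1.40, 1.83, 1.26 and 1.16 (difference -1.37, adjusted p = 0.024). Both probes of Epha5, a receptor for ephrins that guides axons, fell by 0.99 and 0.95. The first was at 4.02, 3.80, 3.95 and 3.44 in rats 1 to 4 and at 2.75, 2.70, 3.16 and 2.65 in rats 5 to 8. Dlg2, a scaffold of synapses, was at 4.06, 4.29, 3.64 and 3.66 against 3.05, 2.87, 3.16 and 2.95 (difference -0.90). Rasgrp4, an activator of Ras found in mast cells, was at 0.83, 0.31, 0.10 and -0.18 against -0.67, -0.70, -0.79 and -1.07 (difference -1.07). Kcnmb3, an accessory subunit of calcium-activated potassium channels, fell by 0.80. The predicted or unnamed transcripts XM_344204, XM_233165, TC530154 and LOC312030 fell by 1.24, 0.88, 0.84 and 0.83. The difference of XM_233165 was -0.49 in nostril B alone.

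Several other lower probes, picked after their values were seen, were set beside the other probes of their gene. Chd4, a nucleosome remodeller, was at 5.97, 5.85, 5.93 and 6.11 against 5.39, 5.33, 5.33 and 5.32 (difference -0.62, adjusted p = 0.0125), but its other 2 probes had differences of -0.14 and -0.02. Kmt2a, a histone methyltransferase, was lower by 0.74 in 1 probe, with -0.17, -0.11 and -0.06 in its other 3. Nbea, a vesicle transport scaffold of neurons, was lower by 0.73, with -0.24 and -0.04 in its other 2. The sodium channel genes Scn3a and Scn3b were lower by 0.56 and 0.39, with 1 tested probe each. This pattern of single probes was general: of 80 differing genes with more than 1 tested probe, 71 had only 1 past 5% and 9 had 2 or more, while in 69 all probes of the gene had the same sign.

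Differences of dim probes depended on the background correction and its offset. With normexp, which adds an offset of 50 to every signal before log2 is taken, the difference was -1.03 for Cxcl2, -1.13 for Cxcl1, -1.16 for Nppc, 0.62 for TC547717, 0.52 for Dnah2, 0.63 for Padi3, 0.40 for TC539720, -0.35 for TC530154 and -0.37 for XM_344204, and these still passed 5%. It was 0.28 for Plac1, 0.26 for the second Rabif probe, 0.12 for A_44_P744488, -0.13 for XM_233165 and -0.55 for Rasgrp4, and these did not pass. Some of these probes were near background in 1 set: XM_233165 was well above it on 7 of 7 and 1 of 8 arrays, XM_344204 on 7 of 7 and 4 of 8, TC566878 on 7 of 7 and 5 of 8, A_44_P744488 on 2 of 7 and 7 of 8, and the dimmer Per3 probe on 3 of 7 and 8 of 8.

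Properties of the probes moved with these calls. The tested probes were split into 3 groups of equal size by GC content. In the group with the highest GC content 0.0977% of probes were lower in rats 5 to 8, beside 0.532% and 0.619% in the lowest and middle groups. For higher probes the shares were 0.272%, 0.467% and 0.369% from the lowest group to the highest. The median GC content was 41.7% for the lower probes, 45.0% for the higher probes and 43.3% for all tested. In the same kind of split by brightness, 0.195% were higher and 0.206% lower in the dimmest group and 0.532% and 0.456% in the brightest. The part of base composition or brightness in the calls was not tested.

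**Figure D4:**
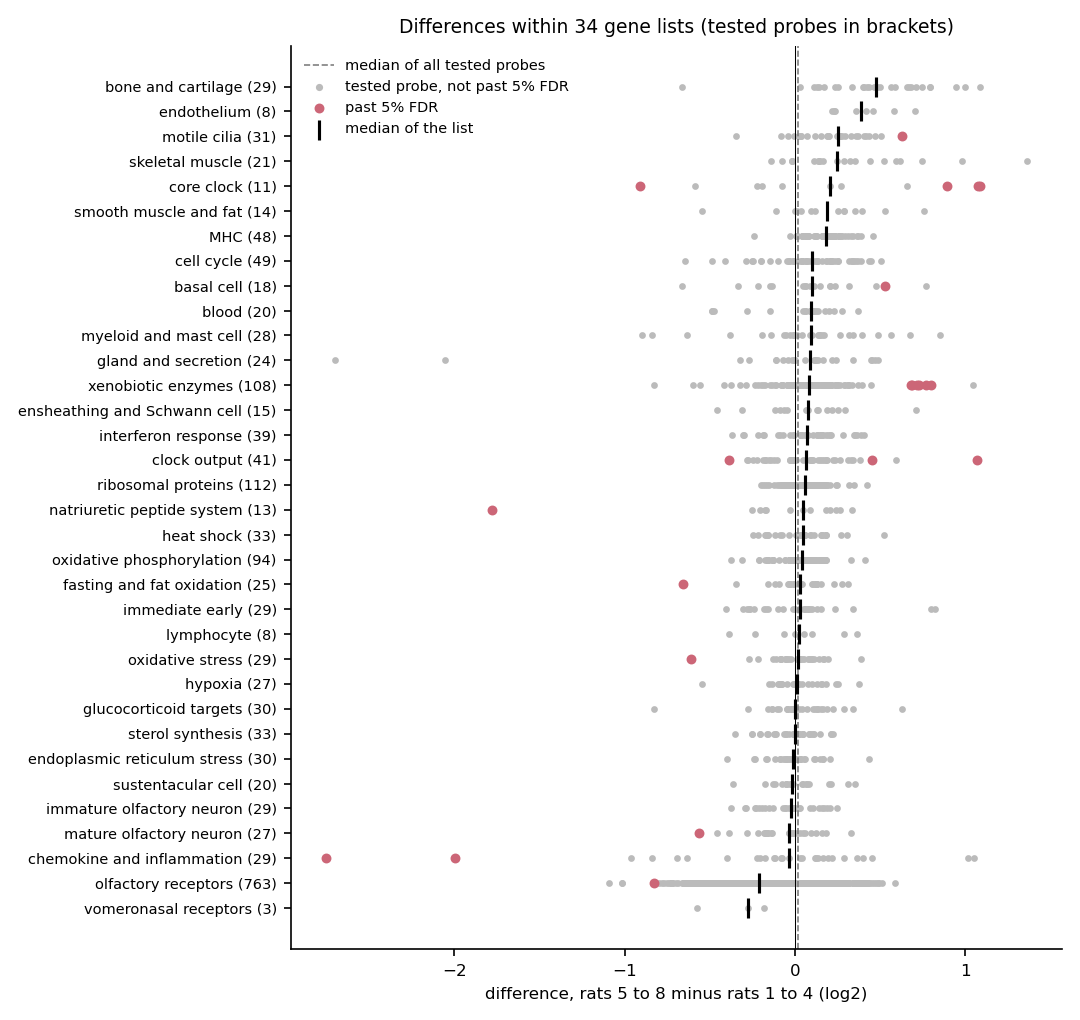
Differences between rats 5 to 8 and rats 1 to 4 (log2) for every tested probe of 34 gene lists, ordered by the median of the list; small grey points did not pass 5% FDR, red points did, the black tick is the median of the list and the dashed line the median of all tested probes. Of the 34 lists, 11 hold a red point, and the medians of bone and cartilage (0.48) and endothelium (0.39) lie furthest to the right with 0 red points.

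The 34 lists of cell types and pathways together covered 1811 tested probes, and 22 of the 217 differing probes were among them, so 195 were in none. In 23 lists no probe passed 5%, while 0.369% of all tested probes were higher and 0.416% were lower at that threshold. Besides the clock, chemokine, xenobiotic and natriuretic lists, single probes passed in 6 of them. They were Emx2, a transcription factor needed for olfactory receptor (OR) expression, at -0.57 in the mature olfactory neuron list (0 higher and 1 lower of 27, median -0.04, and -0.01 after normexp), and Tp63, the master factor of basal cells, at 0.53 in the basal cell list (1 higher of 18, median 0.10). A second probe of Emx2 was at 0.03 and a second probe of Tp63 at 0.77, and neither passed. Ak7, a ciliary adenylate kinase, rose by 0.63 in the motile cilia list (past 5% in 8 of 29 alternatives, 0.34 in nostril B alone, single arrays of the sets overlapping), Txnrd1, a thioredoxin reductase, fell by 0.61 in the oxidative stress list while its other 3 probes were between -0.08 and -0.05, and Ppargc1a, a coactivator of mitochondrial genes, fell by 0.66 in the fasting list. The sixth was an OR gene.

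The olfactory receptors, of which each neuron uses a single gene, had 763 tested probes, of which 1 passed 5%, beside 0.786% of all tested probes. It was Or6y1, named Olr1602 on the array, at 2.45, 2.48, 2.51 and 2.67 in rats 1 to 4 and 2.13, 1.43, 1.78 and 1.46 in rats 5 to 8 (difference -0.83, adjusted p = 0.0393). The median difference of the list was -0.21 beside 0.02 for all probes, and 556 probes were below 0. It was -0.07 after normexp background correction. Probes whose rats did not overlap were 34 lower and 10 higher, beside 4.6% and 6.75% of all probes, and 145 had an unadjusted p under 0.05, beside 19.1% of all probes. The mean level over the list ran from 0.11 to 0.45 in rats 1 to 4 and from -0.09 to 0.28 in rats 5 to 8, so the sets overlapped. Neither Gnal nor Adcy3, which carry the signal of these receptors, passed, with differences of -0.13, -0.02 and -0.01 for the 3 Gnal probes and 0.12 for Adcy3.

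**Figure D5:**
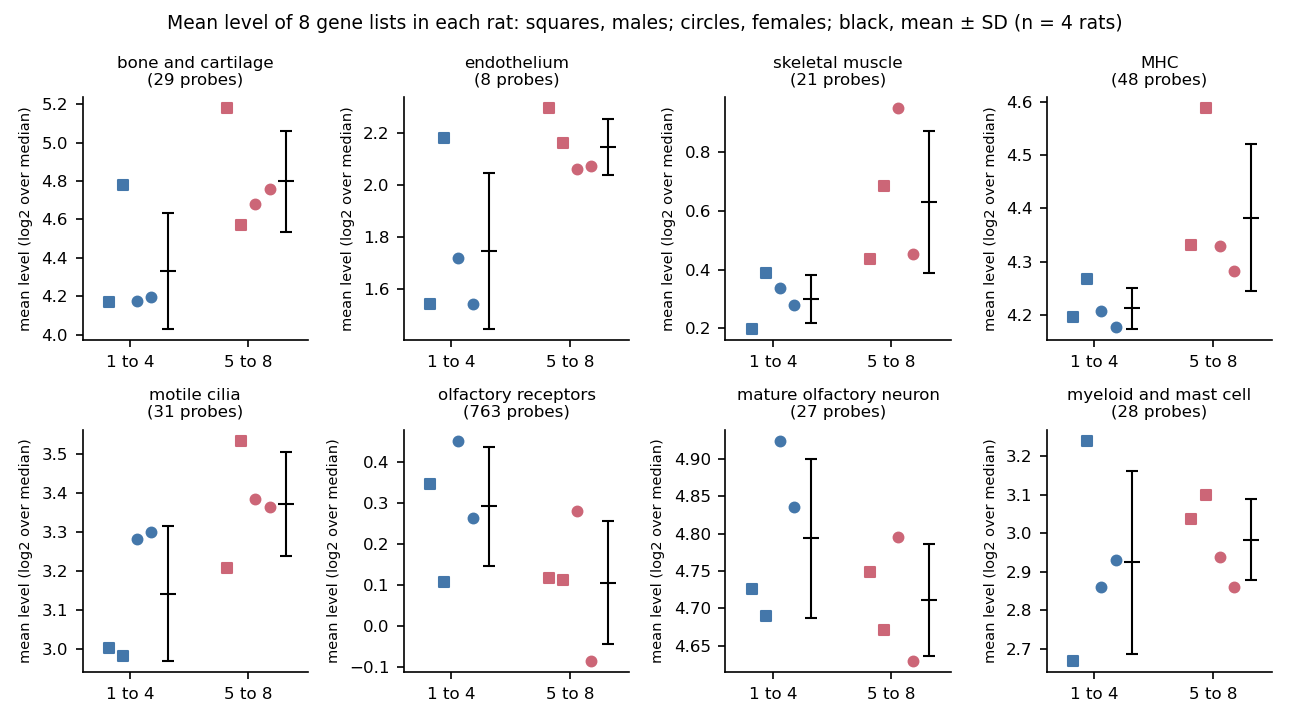
Mean level over the tested probes of 8 gene lists in each rat (log2 of the signal over the array median); squares are males, circles are females and black bars are the mean ± SD of 4 rats. The sets do not overlap for skeletal muscle and MHC, and overlap in the other 6 panels.

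Several lists of tissues that surround the epithelium had medians above that of all probes, although 0 of their probes passed. The bone and cartilage list had 28 of 29 probes above 0 with a median of 0.48, and its mean level ran from 4.17 to 4.78 in rats 1 to 4 and from 4.57 to 5.18 in rats 5 to 8. Male 2 lay within the second set. Its member with the smallest p-value was Col1a2, a chain of type I collagen, at 0.40 (adjusted p = 0.0662). All 8 endothelial probes were above 0, with a median of 0.39 (0.23 after normexp) and means of 1.54 to 2.18 against 2.06 to 2.29, which overlapped. The skeletal muscle list had 16 of 21 probes above 0, a median of 0.24 (0.14 after normexp) and means of 0.20 to 0.39 against 0.44 to 0.95, with Tnnt3, a fast muscle troponin, at 1.36 (adjusted p = 0.0916). The sets did not overlap for skeletal muscle, nor for the major histocompatibility complex (MHC) list, where 46 of 48 probes were above 0 with a median of 0.18 and means of 4.18 to 4.27 against 4.28 to 4.59. The median was 0.19 for smooth muscle and fat (11 of 14 probes above 0), 0.09 for gland and secretion (14 of 24) and 0.10 for blood (15 of 20), and in these 3 lists the mean levels of the sets overlapped. For gland and secretion the mean level ran the other way from the median, at 3.79 in rats 1 to 4 and 3.69 in rats 5 to 8. Beside these values, 53.7% of all tested probes were above 0. The part of such tissue in the differences named above was not tested.

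Motile cilia beat on the respiratory epithelium that borders the olfactory sheet. The motile cilia list had 1 higher probe past 5% of 31 tested, beside 0.369% of all tested probes. It had 27 probes above 0 and a median of 0.25. Its mean level ran from 2.98 to 3.30 in rats 1 to 4 and from 3.21 to 3.53 in rats 5 to 8. Males 1 and 2 were lowest and females 3 and 4 lay within the range of the second set. Dnah2, a dynein heavy chain that is outside the list, was at 0.42, 0.23, -0.15 and 0.08 against 0.81, 1.33, 0.87 and 1.08 (difference 0.87, adjusted p = 0.0369), and a second probe had a difference of 0.48 (adjusted p = 0.112). Over the single arrays the sets overlapped for Dnah2. Other genes outside the list that are named for cilia or the dynein of cilia also passed. Picked after their values were seen, Cfap144 rose by 0.60, Dnaaf1 by 0.54, Cfap141 by 0.53 and Drc7 by 0.46. Genes of this kind that did not pass were not counted.

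Blood transcripts varied widely between animals, and a difference between the sets could be neither shown nor bounded closely. Hbb, a beta globin, was at 8.51, 6.89, 6.18 and 8.62 in rats 1 to 4 and at 8.67, 9.13, 5.84 and 6.91 in rats 5 to 8, a difference of 0.09 ± 0.77 (SE), and Alas2, the first enzyme of heme synthesis in red cells, had a difference of 0.28 ± 1.07 (SE). Over the alternatives the difference ran from -1.17 to 1.35 for Hbb and from -1.48 to 2.03 for Alas2, and each was above 0 in 24 of 29. The lists of interferon response (39 probes, median 0.07), glucocorticoid targets (30 probes, median 0.001), immediate early genes (29 probes, median 0.03), heat shock (33 probes, median 0.04), hypoxia (27 probes, median 0.01), ribosomal proteins (112 probes, median 0.06) and respiratory chain subunits (94 probes, median 0.04) had 0 probes past 5% in either direction. Under the other scalings and normexp these medians lay between -0.03 and 0.10, and those of glucocorticoid targets, hypoxia, ribosomal proteins and respiratory chain subunits changed sign. Gap43 and Krt5, the markers of growing neurons and basal cells, were at -0.02 and 0.21 and did not pass, and Gap43 kept its direction in 25 of 29 alternatives.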

How the data were processed

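The authors hybridized each RNA sample alone, labeled with Cy3, and extracted spot intensities with Agilent Feature Extraction (version 9.5 per the file headers). The deposited processed intensity was background-subtracted and not scaled between arrays. A deposited table of ratio values, in which the authors' signals were divided by array and probe medians, served as an alternative. Of 45018 spots, 43379 were not controls and gave 41012 probes. Outlier-flagged spots were dropped, spots of a probe averaged, signals divided by the array median and floored at 0.1 of it, and log2 taken. Nostrils were averaged per rat. Probes well above background on 7 or more arrays were fitted with limma 3.58.1 (trended eBayes, R 4.3.3, 4 against 4 rats, two-sided, Benjamini-Hochberg). The script was tested on simulated data. Positions follow the annotation (rn3). Gene names came through RefSeq by accession (10861 probes), name (5542) or synonym (3704). Named probes were the 15 highest and 15 lowest past 5%, list members past 5% (or the member with the smallest p), probes of the loci and defining genes, unless said otherwise. The comparison and the gene lists were chosen with earlier results of these data known. Nothing states that samples of a set came from separate litters or cages, so p-values measure the spread between these animals. The number of arrays limits the precision. Alternatives covered scaling, background, filter, floor, covariates, blocks, slides, nostrils and single rats. Items withheld for evaluation are not reported here.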

Additional observations from a re-analysis of the deposited data

Results flagged for a closer look

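Within the sets of 4 rats, 5 of 136 combinations of a named probe and a set (3.68%) held a rat whose gap to its nearest neighbour was a large part of the whole range of the set, by Dixon's test at 95%. Chance flags about 1 in 20 groups. For Plac1, rat 3 was at -3.17 while rats 1, 2 and 4 lay between -2.59 and -2.56 (ratio 0.944). For XM_233165, rat 1 was at -1.50 above the other rats of its set at -1.84 to -1.81 (ratio 0.908), and for 6430548M08Rikl rat 1 was at 0.67 above 0.46 to 0.50 (ratio 0.8292). In rats 5 to 8, rat 8 was low for Adcy3, at 6.73 below 6.89 to 6.91 (ratio 0.923), and for a Gnal probe, at 8.49 below 8.79 to 8.83 (ratio 0.889).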

How the results depend on the processing

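The main values were 5 probes past 1% and 217 past 5%. Counts past 1% and 5% were 8 and 24 with normexp, 14 and 1359 with sex as a covariate, 1152 and 3829 with 15 arrays as independent samples, 223 and 1145 with rat as a random block, 72 and 413 with slide as a random block, 0 and 0 for slide means (limma; 2983 under an unadjusted p of 0.05), 63 and 2753 without slide 1, 3 and 7 without slide 2, 0 and 6 without slide 3, 0 and 3 without slide 4, 3 and 6 in nostril A alone, 0 and 0 by the methods' t-test on 8 rats (4250 under an unadjusted p of 0.05), 641 and 2654 by that test on 15 arrays, and 0 and 117 in the authors' ratio table, where 34.2% of calls were higher against 47% in the main values. Nostril B alone gave 7 past 5% and no filter gave 77. Leaving out 1 rat gave 4 to 5 past 1% and 5 to 899 past 5%. With scaling to the 75th percentile, males had 1 probe past 1% and 75 past 5%, and females had 16 past 1%. That scaling gave 3 probes of motile cilia, 2 of olfactory receptors and 1 of the respiratory chain list past 5%. Quantile normalization gave 2 of mature olfactory neuron, 1 of bone, 3 of motile cilia, 2 of olfactory receptors, 1 of heat shock, 1 of respiratory chain and 2 of oxidative stress. With the blood list as a covariate 0 of basal cell, 3 of xenobiotic, 0 of motile cilia, 0 of olfactory receptor and 0 of fasting probes passed. At 1% there were 0 runs. The cause of these changes was not tested. No probe past 5% changed direction, which was fixed in advance for the fits without 1 rat. Medians of lists near 0 and defining genes that did not pass changed direction in some alternatives. Of the values of single probes under the alternatives, 1055 kept their side of the threshold and 884 lost it, all in the main direction. A further 29, of genes that had not passed, changed sign. No paired analysis was possible because the sets share no replicate number (rats 1 to 4 and rats 5 to 8 are different animals). Signals near background limit Cxcl2, Plac1, TC566878, XM_233165, XM_344204, A_44_P744488 and the dimmer Per3 probe, and 4 rats a set limit every count.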
